A study of Mus musculus with 3 samples.

Results

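The MYC, MAX and MXD network is a set of transcription factors that bind DNA through a basic helix-loop-helix leucine zipper and work as dimers. The genes described here are Myc, Max, Mxd1, Mxd3, Mxd4, Mxi1, Mlx, Mnt and Mga, taken by symbol from the tables: 9 of 55536 annotated gene IDs, with 61 annotated transcripts among them. Their levels were read in primary macrophages grown from C57BL/6J bone marrow, in total RNA of the cytosol after removal of ribosomal RNA. The cultures had been exposed for 60 min to 100 ng/ml lipid A, the lipopolysaccharide moiety sensed by Toll-like receptor 4, and 1 µg of RNA went into each library. The 3 libraries belong to 1 group, with the labels' biological replicate numbers 1, 2 and 3, a biosample each and 1 shared donor entry, and whether the cells came from separate mice is not said. Neither resting cells nor the nucleus were analysed here, so no induction by lipid A and no distribution between compartments was measured.

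MYC binds its target genes only as a dimer with MAX, at a DNA element called the E-box, and recruits histone acetyltransferases and elongation factors that raise transcription. MXD1, MXD3, MXD4 and MXI1, together with MNT and MGA, compete for the same MAX, and the MXD proteins and MNT bring the SIN3 corepressor with its histone deacetylases to the same sites. MLX is a second dimerisation hub that pairs with MXD1, MXD4 and MNT and with the glucose-responsive factors MondoA and ChREBP. In the myeloid lineage MYC is known for its role in proliferation under growth factors, and MXD1 for its rise as cells mature.

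The E-box gives the network its shared address, so the promoters of the members were searched for CACGTG, the canonical E-box, which reads the same on both strands. RefSeq promoter windows of GRCm38.p6, from 250 bases before to 50 bases after a gene's start, matched 8 of the 9 members; Myc had no entry. Of these 8 genes 4 held the letters (Max, Mlx, Mnt and Mxd4), and Mxd1, Mxd3, Mga and the 3 windows of Mxi1 did not. Among all 27025 genes with a window 8.09% held them. A match is a description of the letters and no measurement of binding. The motif began 3 bases before the RefSeq start in Max, 40 before it in Mlx, 123 before it in Mnt and 219 before it in Mxd4. The stretches are shown 5′ to 3′ on the gene's strand, with the E-box in capitals:
Max, chr12:76962234-76962263, minus strand: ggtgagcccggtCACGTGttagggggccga
Mlx, chr11:101087238-101087267, plus strand: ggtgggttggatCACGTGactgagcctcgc
Mnt, chr11:74830789-74830818, plus strand: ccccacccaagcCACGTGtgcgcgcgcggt
Mxd4, chr5:34187912-34187941, minus strand: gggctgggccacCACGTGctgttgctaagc

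The libraries held 64110863, 72057046 and 69345880 expected counts (the quantifier's estimate of fragments per gene), and a count of 0 allows up to 3 counts. TPM, a level scaled by transcript length and library total, allows levels of different genes to be compared, but the 7SL RNAs took 57.1, 69.6 and 62.2% of it in replicates 1, 2 and 3, so every other gene's TPM moved with that share. Levels were therefore also set against the library's median protein-coding gene, which stood at 9.08, 5.76 and 6.86 TPM. All 10 macrophage markers exceeded 5 TPM, with a summed level of 4921 to 9681 TPM. Of 37 markers of other blood and stromal cells, S100a9 (15.9 ± 1.96 TPM, SD, n = 3) and S100a8 (10.1 ± 1.33 TPM) alone exceeded it. T and NK cell, B cell and erythroid markers summed to at most 0.89 TPM in any library, with Cd3g, Ncr1, Hbb-bs and Hba-a1 at 0. In such bulk samples, fewer cells that carry a transcript and less of it per cell cannot be told apart.

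Mxd1 and Max led the network in the cytosol, Myc came next, 5 members lay close to the median gene, and Mxd3 was nearly absent. Of the 8 members with a mean of at least 1 TPM, 2 (Mxd1 and Max) lay more than 2-fold above the median gene by the test, 0 lay below it and 6 passed in neither direction. Across all 9123 protein-coding genes tested 26.3% were called above and 24.5% below, so the members' share of calls above was near the background and their share below was under it. The median over the 8 members was a log2 difference of 0.25 from the median gene, and their median level was 8.62 TPM beside 7.24 TPM over all genes tested. Calls are from limma's moderated test against a 2-fold band, adjusted by the Benjamini-Hochberg method over all 9123 genes, on log2(TPM + 0.1), a scale that understates differences of low genes. The calls depend on which genes set the median: with no minimum level 7 members were called above and Mxd3 below, beside 34.7 and 38% of all genes tested. With a minimum mean of 5 TPM Mxd1 alone was above and Mxi1 below, beside 22.3 and 8.74%.

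**Figure D1:**
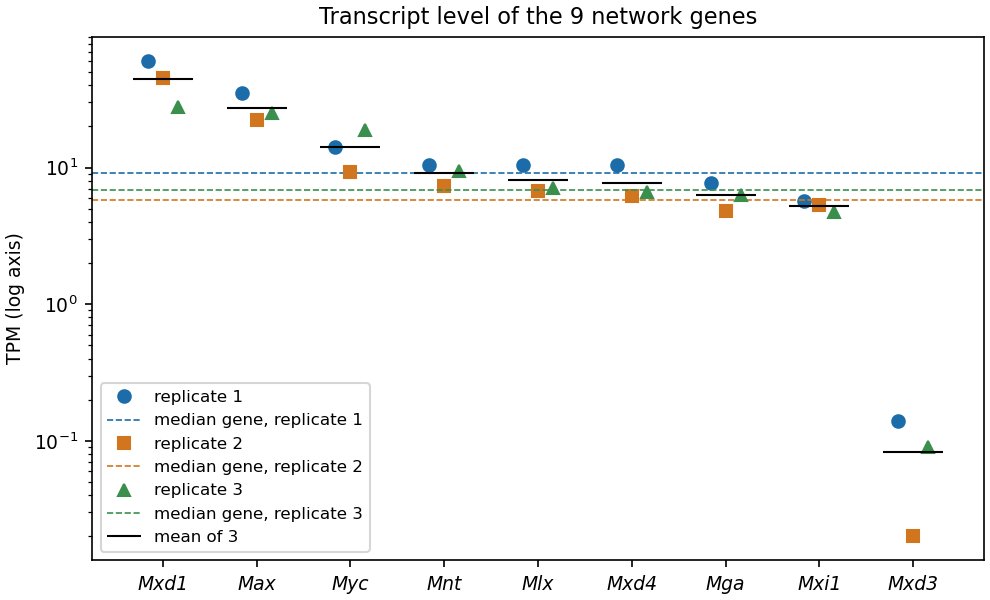
TPM of the 9 genes (y axis, log scale) in each of the 3 libraries (symbols), with the mean as a black bar and each library's median protein-coding gene as a dashed line. Mxd1, Max and Myc lie above the median gene in all 3 libraries, and Mxd3 lies at 0.14 TPM or less.

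Myc, the activating partner (chr15:61985391-61990374, plus strand of GRCm38), had 2522, 2765 and 4853 counts in replicates 1, 2 and 3, which gave 14.1, 9.30 and 18.9 TPM. Replicate 3 was the highest in both. The mean of 14.1 ± 4.79 TPM exceeded that of 69.7% of the expressed protein-coding genes. Myc stood at 1.55, 1.61 and 2.75 times the level of the library's own median gene. This left it 0.92 ± 0.16 (SE) above on the log2 scale, inside the 2-fold band (limma adjusted p = 1). It was above the band when low genes were kept in the test (2.28, limma adjusted p = 5e-06), since those genes lower the median. The estimate also passed 1, without a call, in other settings. It was 1.27 with TPM rescaled to nuclear protein-coding genes (limma adjusted p = 0.13), 1.02 without replicate 1 and 1.07 without replicate 2. Lower values came without replicate 3 (0.656), on log2(TPM + 1) (0.843) and with a minimum mean of 5 TPM (-0.006). TPM of the second transcript table deposited for each library gave 0.525. By largest log2 difference over the 3 libraries, the protein-coding genes closest to Myc in level were Myo1e, Tubb4b and Cpd, within 0.25, 0.30 and 0.32.

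Max, the obligate partner of MYC, the MXD proteins, MNT and MGA (chr12:76937269-76962201, minus strand), stood at 35.4, 22.4 and 24.9 TPM, from 5128, 5544 and 4899 counts. It was 3.89, 3.88 and 3.63 times the median gene, so that its level hardly varied once the library's own median was used. The difference was 1.91 ± 0.06 on the log2 scale (limma adjusted p = 1e-05), and 0.99 (limma adjusted p = 1) when only genes of at least 5 TPM set the median. Its mean of 27.5 ± 6.89 TPM exceeded that of 84.2% of the expressed protein-coding genes. The genes closest to it in level, Tut7, H2afy and Ap3d1, stayed within 0.03, 0.03 and 0.04 of it on the log2 scale in every library.

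Mxd1, the MAX-binding repressor linked to myeloid maturation (chr6:86647042-86669161, minus strand), was the most abundant member at 60.8, 45.3 and 27.6 TPM, from 23653, 29120 and 15361 counts. It ranked first in all 3 libraries, and replicate 3 was the lowest. With a mean of 44.6 ± 16.6 TPM it exceeded 90.2% of the expressed protein-coding genes. It was 6.69, 7.86 and 4.03 times the median gene, or 2.56 ± 0.18 on the log2 scale (limma adjusted p = 0.00015). That call held in every alternative tried.

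The other MXD genes were far lower. Mxd4, another MAX and MLX partner (chr5:34173883-34187720, minus strand), stood at 10.5, 6.19 and 6.67 TPM, and Mxi1 (chr19:53310518-53375810, plus strand) at 5.69, 5.35 and 4.72 TPM. Neither left the 2-fold band around the median gene, with differences of 0.09 ± 0.07 for Mxd4 and -0.43 ± 0.11 for Mxi1 (limma adjusted p = 1 for each). An antisense gene, Gm42846, shares 514 exon bases with Mxd4 and stood at 2.26 to 3.16 TPM. It held 88, 103 and 90 counts in replicates 1, 2 and 3, beside 3303, 3273 and 3072 for Mxd4. Reads from the shared bases could not be told apart unless the counting used strand, which no source used here states. Of the summed TPM of the 4 MXD genes, Mxd1 made up 78.9, 79.7 and 70.6%, Mxd4 13.6, 10.9 and 17.1%, and Mxi1 7.38, 9.41 and 12.1%.

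Mxd3, the family member associated with S phase in dividing progenitors (chr13:55325168-55329823, minus strand), had 14, 4 and 13 counts, or 0.14, 0.02 and 0.09 TPM. The exact 95% Poisson intervals on these counts, 7.65 to 23.5, 1.09 to 10.2 and 6.92 to 22.2, overlap in all 3 libraries and cover counting error only. The gene therefore was detected but failed the minimum of 1 TPM and was not tested with the rest. Its exons overlap by 105 bases with those of Prelid1 on the opposite strand, which held 6379 to 8778 counts, so even these few counts are uncertain. All 8 proliferation genes measured in the same libraries were above 1 TPM on average, with a sum of 85.5 to 131 TPM.

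Mnt, the widely expressed MAX-binding repressor (chr11:74830920-74845725, plus strand), stood at 10.4, 7.36 and 9.50 TPM, from 4114, 4636 and 5288 counts. Mga, the largest member, which also carries a T-box DNA-binding domain (chr2:119897228-119969581, plus strand), stood at 7.75, 4.84 and 6.33 TPM, from 6758, 6406 and 7289 counts. Both lay in the band, at 0.34 ± 0.07 and -0.20 ± 0.06 on the log2 scale. Mga thus had more counts than Max in every library but a much lower level per length. Mlx, the alternative hub (chr11:101087277-101092207, plus strand), stood at 10.5, 6.75 and 7.15 TPM, which was 0.17 ± 0.06 above the median gene. A gene on the opposite strand, Psmc3ip, shares 385 exon bases with Mlx but held only 37 to 41 counts.

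**Figure D2:**
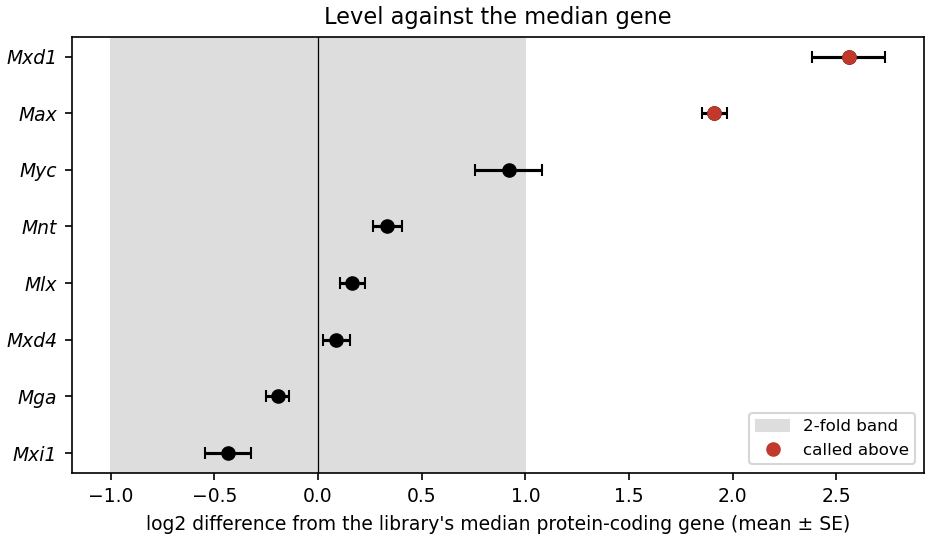
Difference of each tested member from the library's median protein-coding gene on the log2 scale (x axis, mean ± SE over 3 libraries), with the 2-fold band shaded. Mxd1 at 2.56 and Max at 1.91 lie beyond the band, and Myc at 0.92 lies just inside it.

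By mean TPM the order was Mxd1, Max, Myc, Mnt, Mlx, Mxd4, Mga, Mxi1 and Mxd3. The first 3 places and the last were the same in each library. Among the 8 neighbouring pairs, 6 kept their sign in every library, and with 3 libraries an exact 2-sided sign-flip permutation test cannot give a p under 0.25. Mxd1 exceeded Max by 0.65 ± 0.45 (SD) on the log2(TPM + 0.1) scale, Max exceeded Myc by 0.99 ± 0.51 and Myc exceeded Mnt by 0.58 ± 0.35. These gaps were larger than their spread, but in replicate 3 Mxd1 and Max were 0.15 apart and Max and Myc 0.40 apart. The differences of Mnt from Mlx (0.17 ± 0.22) and of Mga from Mxi1 (0.24 ± 0.33) did not exceed their spread in the gene tables. In the second transcript table Mga exceeded Mxi1 by 0.62 on average and was higher in every library. Mlx and Mxd4 differed by 0.08 ± 0.06, and Mxd4 exceeded Mga by 0.28 ± 0.19 in the gene tables but not in the second transcript table (-0.06).

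Within each library the transcripts of the MXD genes outnumbered those of Myc per length. The summed TPM of Mxd1, Mxd3, Mxd4 and Mxi1 was 77.1, 56.8 and 39.1, which was 5.47, 6.11 and 2.07 times that of Myc in replicates 1, 2 and 3. Replicate 3 stood apart, since Myc was highest and Mxd1 lowest there. Max was 2.51, 2.40 and 1.32 times Myc. All the genes whose proteins compete for MAX (Myc, the MXD genes, Mnt and Mga) together had 3.09, 3.50 and 2.96 times the TPM of Max. Mnt was lower than Myc in every library, at 0.74, 0.79 and 0.50 times its level. The hubs kept a constant proportion, with Mlx at 0.298, 0.302 and 0.287 times Max. These are ratios of transcripts, and proteins were not measured.

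The spread between libraries was compared on expected counts scaled by TMM, which is not affected by length. On that scale Myc stood at 38.4, 40.3 and 68.8 CPM and Mxd1 at 360, 424 and 218 CPM. The highest library exceeded the lowest 1.79-fold for Myc and 1.95-fold for Mxd1, in opposite directions, and 1.19-fold for the median of 13062 genes. Their biological coefficients of variation (BCV, edgeR's estimate of spread beyond counting error) were 0.215 and 0.224, beside a median of 0.122, and 74.4 and 79.1% of genes had a lower one. Replicate 3 decided both values, which were 0.0865 and 0.118 without it, beside a median of 0.120.

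Mxi1 was the remaining member above the median spread (BCV 0.145), at 18.3, 26.7 and 19.9 CPM, with replicate 2 highest. Without replicate 2 its BCV was 0.105 beside a median of 0.135, and without replicate 1 it was 0.1296 beside 0.1298, so it was above the median only with both libraries kept. Mlx, Mga, Mxd4, Max and Mnt were steady, with BCVs of 0.0882 to 0.0974 and a highest library at most 1.20-fold above the lowest. Other transcripts also differed between the libraries. The summed level of 5 nuclear RNAs was 465, 135 and 361 TPM and that of 8 proliferation genes 131, 85.5 and 131 TPM in replicates 1, 2 and 3. TPM is lowered in replicate 2 by the 7SL share, so the sums were also divided by the library's median gene. On that scale the nuclear RNAs stood at 51.2, 23.5 and 52.7 times the median gene, lowest in replicate 2. The proliferation genes stood at 14.5, 14.8 and 19.1 times, highest in replicate 3, the library where Myc was highest and Mxd1 lowest, and 7 of the 8 were highest there. The part of either in the spread of the members was not tested.

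**Figure D3:**
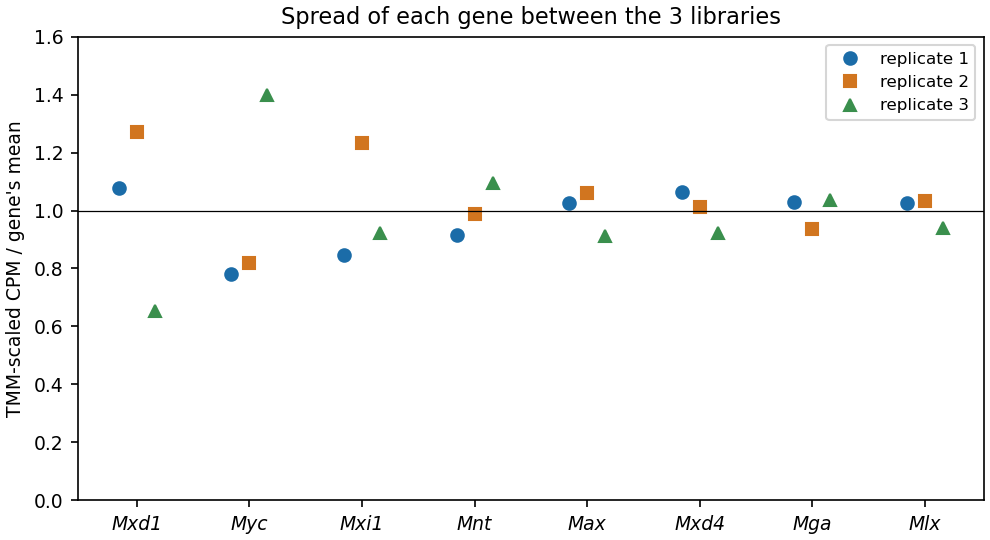
TMM-scaled CPM of each member divided by its mean (y axis) in the 3 libraries (symbols), ordered by the ratio of the highest to the lowest library. Mxd1 is lowest and Myc highest in replicate 3, while Max, Mxd4, Mga and Mlx stay within 1.16-fold.

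Coding segments that tell the main transcripts apart are shown for 3 members, Max, Mlx and Mxi1, because the shares below refer to them. They were read from the GENCODE M21 transcripts, 5′ to 3′, with the segment in capitals and up to 12 neighbouring bases of the same transcript in lower case:
Max exon 2, 27 bases, chr12:76961263-76961289, minus strand: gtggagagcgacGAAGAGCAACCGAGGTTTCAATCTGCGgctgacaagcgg
Mlx exon 3, 90 bases, chr11:101088236-101088325, plus strand: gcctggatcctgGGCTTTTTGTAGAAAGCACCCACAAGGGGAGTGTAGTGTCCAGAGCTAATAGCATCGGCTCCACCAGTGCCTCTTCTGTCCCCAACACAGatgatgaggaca
Mlx exon 1 extension, 162 bases, chr11:101087368-101087529, plus strand: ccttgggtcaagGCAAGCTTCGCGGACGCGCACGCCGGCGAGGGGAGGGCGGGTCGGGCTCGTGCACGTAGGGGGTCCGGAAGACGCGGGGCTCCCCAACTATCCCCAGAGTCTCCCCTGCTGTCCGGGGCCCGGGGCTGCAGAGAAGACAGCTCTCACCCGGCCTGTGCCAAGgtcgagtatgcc
Mxi1 upstream first exon, 274 coding bases, chr19:53310700-53310973, plus strand: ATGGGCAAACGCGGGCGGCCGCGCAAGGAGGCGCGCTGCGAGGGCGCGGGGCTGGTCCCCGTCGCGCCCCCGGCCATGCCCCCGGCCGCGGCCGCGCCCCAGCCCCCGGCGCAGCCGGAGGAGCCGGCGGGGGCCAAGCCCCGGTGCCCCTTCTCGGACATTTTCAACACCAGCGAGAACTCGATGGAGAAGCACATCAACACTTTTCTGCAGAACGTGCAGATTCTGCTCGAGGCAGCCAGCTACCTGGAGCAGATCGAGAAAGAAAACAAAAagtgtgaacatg
Mxi1 downstream first exon, 73 coding bases, chr19:53329648-53329720, plus strand: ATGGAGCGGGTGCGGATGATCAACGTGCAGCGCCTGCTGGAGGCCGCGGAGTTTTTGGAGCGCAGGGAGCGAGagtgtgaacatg

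Max was made up of 2 main transcripts that differ in coding sequence by exon 2, which adds 9 codons ahead of the DNA-binding region and gives the longer of the known MAX proteins. Max-201, without the exon, took 55.7, 63.8 and 56.5% of the gene's TPM, and Max-202, with it, took 37.1, 33.1 and 32.2%. The shorter form led in every library. Over all protein-coding transcripts of the gene, those with the exon made up 37.0 ± 2.91% (SD, n = 3), and 35.4 ± 3.82% in the second transcript table, which the authors deposited beside the first with the column names of another quantifier.

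Most Mlx message held the 90-base exon 3, which adds 30 codons. The share was 75.8, 82.3 and 81.9% of the gene's protein-coding TPM (80.0 ± 3.67%), with 81.1 ± 5.45% in the second table. Transcripts with the 162-base extension of exon 1, which adds 54 codons, held 27.5 ± 3.30%. Mlx-202, with exon 3 and without the extension, was the leading transcript at 49.8 ± 4.35% of the gene's TPM, ahead of Mlx-201 with both (17.8 ± 3.84%) and Mlx-203 with neither (11.5 ± 1.96%). A short processed transcript, Mlx-204, took 15.2 ± 2.66% of TPM but 4.52% of counts, since TPM weights short transcripts up.

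Mxi1 is read from alternative starts, and the first exons give its protein different amino termini, the end of MXD proteins that binds SIN3. Mxi1-201, which begins with the upstream exon, led in each library at 68.7, 64.6 and 71.7% of the gene's TPM. Mxi1-203, which begins with the downstream exon, took 30.5, 34.5 and 26.3%. The upstream exon made up 68.5 ± 3.27% of protein-coding TPM, and 60.7 ± 3.83% in the second table, so its lead did not depend on the quantifier while its size did.

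**Figure D4:**
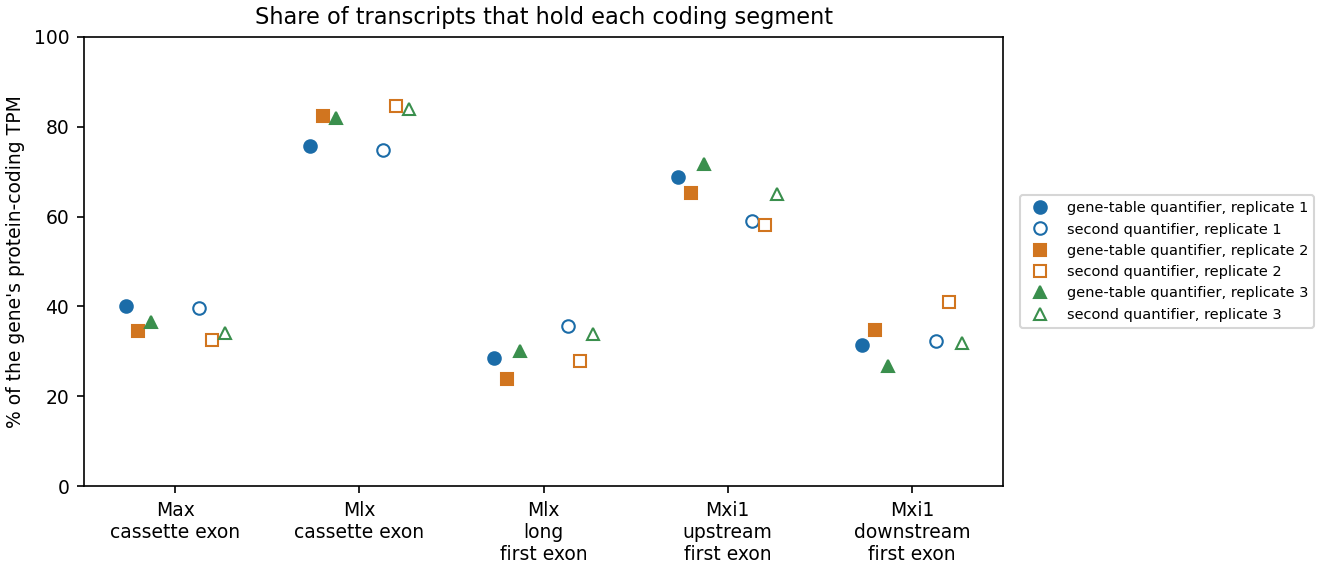
Share of the gene's protein-coding TPM in transcripts that hold each segment (y axis, percent) for the 3 libraries, from the gene-table quantifier (filled) and from the second transcript table (open). Exon 3 of Mlx and the upstream first exon of Mxi1 are in most transcripts. Exon 2 of Max is in 34.5 to 40.2% by the gene-table quantifier and in 32.5 to 39.7% in the second table.

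Myc counts were spread over transcripts that differ little. Myc-201 and Myc-205 have the same 2338-base spliced sequence and differ only in the annotated start of translation, Myc-201 beginning upstream in exon 1. Each was given 29.5 ± 0.261% of the gene's TPM, an even split, since their reads are the same. Myc-202 held 28.9 ± 1.62%, but 12.7, 6.19 and 18.6% in the second table, so its share depended on the quantifier.

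Mga was the least settled. Mga-204 led at 52.4, 54.7 and 41.5% of its TPM in the gene tables, but the second table gave it 8.18 ± 1.14% and placed Mga-201 first at 40.4 ± 4.01%. Mga-204 and Mga-201 are annotated with 9126 and 9009 coding bases, so their proteins differ too. Transcripts of Mga without a coding sequence took 29.3, 36.4 and 34.2% of TPM but only 2.68, 3.75 and 4.06% of counts. Among these Mga-208, of 739 bases, held 12.9 ± 0.347% of TPM. Mxd1, Mxd4 and Mnt were simple, with Mxd1-201, Mxd4-201 and Mnt-201 at 96.5 ± 0.465, 96.1 ± 1.77 and 98.5 ± 1.74%, and all counts of Mxd3 were given to Mxd3-201. In the second table Mxd1-201 and Mxd4-201 held 92.7 ± 0.759 and 95.8 ± 2.71%, while Mnt-201 held 91.8, 80.7 and 93.6% in replicates 1, 2 and 3. Mxd3-201, with few counts, held 63.4, 36.4 and 100% there. Across the 9 members 6 had a transcript with over 50% of the TPM. That number was also 6 in the second table and without replicate 2. It was 7 without replicate 1, and 8 without replicate 3 and by share of expected counts.

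Of the closest relatives of the members 3 of 4 were at or near 0. Mycn was listed at 0 TPM in all libraries, Mycl stood at 0.0533 ± 0.0153 TPM, and Mlxipl, which encodes ChREBP, at 0.00667 ± 0.00577 TPM. Mlxip, which encodes the MLX partner MondoA, was measured at 5.67 ± 1.44 TPM, in the band around the median gene. MondoA and MLX are known to drive Txnip and Arrdc4, of the arrestin family, which stood at 11.4 ± 2.79 and 3.84 ± 1.45 TPM, and the related Arrdc3 stood at 8.83 ± 0.873 TPM. None of these 3 was called, and Pklr, the remaining gene of that list, was listed at 0.

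The machinery that the factors recruit was measured throughout. Of 10 corepressor genes 3 were above the median gene and 0 below, beside 26.3% above and 24.5% below over all genes tested. Ncor1 (42.0 ± 6.51 TPM) and Sin3b, a SIN3 scaffold (31.4 ± 9.46 TPM), were the highest of the list. Sin3a, the other scaffold, stood at 6.97 ± 1.99 TPM and was not called. Among 12 coactivator genes 3 were above and 0 below. In both lists the share above was thus near the background and the share below under it. Cdk9, the elongation kinase (22.2 ± 5.53 TPM), and Paf1 (16.2 ± 2.38 TPM) were among the coactivator genes above. Trrap, the large scaffold that MYC binds, was not called at 14.0 ± 3.13 TPM. The medians of the corepressor and coactivator lists were 12.6 and 9.67 TPM.

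Of 12 genes for MYC turnover and partners, 3 were above and 5 below, beside 26.3 and 24.5% of all genes tested. The median of the list was 4.24 TPM. Gsk3b (21.1 ± 4.02 TPM), whose kinase marks MYC for decay, and the ubiquitin ligase genes Huwe1 (19.2 ± 3.88) and Stub1 (17.1 ± 2.08 TPM) were above. Among those below were Usp28, Skp2, Aurka and Usp36, at 1.15 to 1.62 TPM. Of 10 genes for the complex that MGA forms with Polycomb proteins, 2 were above and 3 below, near the shares over all genes tested. Rnf2 (19.9 ± 5.43 TPM), a ubiquitin ligase shared by Polycomb complexes, and the chromatin reader gene Cbx3 (16.9 ± 3.67) were above, while Rybp stood at 7.91 ± 1.69 TPM and was not called. Pcgf6, E2f6 and L3mbtl2, which set the MGA complex apart from other Polycomb complexes, were below at 1.20 ± 0.240, 2.49 ± 0.317 and 2.82 ± 0.592 TPM. Sin3a and Trrap and the genes named as below were chosen after their values were seen.

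Of 11 genes for other factors that bind E-boxes, 4 were above the median gene, 0 below, 6 not called and 1 under 1 TPM. Over all genes tested 26.3% were above and 24.5% below. Tfec (41.9 ± 18.8 TPM) and Tfe3 (29.3 ± 7.03), of the MiT family that controls lysosome genes, and Srebf2 (26.8 ± 4.82 TPM), the regulator of cholesterol synthesis, led the list, whose median was 12.04 TPM. Tfec stood at 62.0, 39.0 and 24.7 TPM, with replicate 3 the lowest, as for Mxd1.

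Textbook targets of MYC spanned a wide range. Of 26 genes 9 were above the median gene, 3 below, 12 not called and 2 under 1 TPM. Eif4a1, a translation helicase (205.1 ± 57.2 TPM), Tfrc, the transferrin receptor (198 ± 50.2), and Ldha, lactate dehydrogenase (98.7 ± 19.0 TPM), were highest. Cad, Polr1b and Wdr12, for pyrimidine synthesis and ribosome production, were below at 1.88 ± 0.481, 1.09 ± 0.232 and 1.72 ± 0.361 TPM and were named after their values were seen. Of the 19 target genes with a promoter window 7 held CACGTG, beside 8.09% of all genes. Within these windows Eif4a1 and Ldha held it, while Tfrc and Cad did not, and sequence beyond the windows was not searched. Apart from the targets and the repressed genes below, each list had 1 gene with it, or 9.09 to 25% of those with a window. The list's median was 8.95 TPM. Among 6 genes known to be repressed by MYC 3 were above the median gene and 0 below, led by Cdkn1a, the cell cycle inhibitor p21, at 475, 337 and 240 TPM, ahead of Gadd45a (36.3 ± 9.87) and Ndrg1 (20.2 ± 5.26 TPM). None of the 4 with a window held the E-box, too few genes to compare with 8.09%. Across the 95 genes of the 9 lists, 27 were above, 11 below, 49 not called and 8 under 1 TPM, beside the background of 26.3 and 24.5% over all genes tested.

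**Figure D5:**
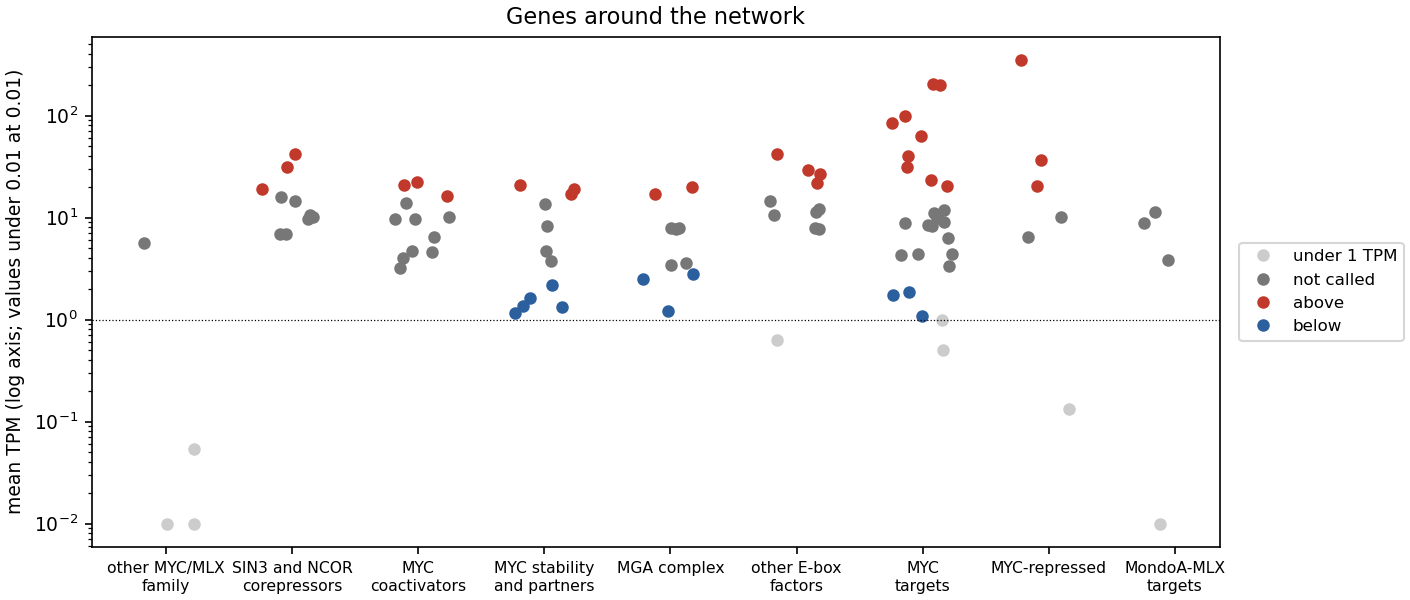
Mean TPM over 3 libraries (y axis, log scale) of each gene in the 9 lists around the network (x axis), colored by the call against the library's median protein-coding gene. All 11 genes called below lie in the lists for MYC turnover, the MGA complex and MYC targets, and Cdkn1a is the highest gene of all lists.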

How the data were processed

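Members, lists and tests were chosen with earlier results of these data known. Per the file headers, the deposited gene tables give expected counts, TPM and FPKM, and the transcript tables also the percent of the gene's TPM per transcript, under the column names that RSEM uses. The authors deposited a second transcript table for each library, with estimated counts and TPM under the column names that kallisto uses. Deposited description files name mm10 and GENCODE M21. The quantifiers, their versions and any use of strand: not given in the sources used here. All 55536 gene IDs matched GENCODE M21. The 26345 other rows (spike-ins and numbered features) were left out and held 0.26, 0.0933 and 0.0577% of the counts.

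With 1 group there was no contrast between conditions, and p-values measure the spread between these libraries, which may be technical. For each protein-coding gene of at least 1 TPM on average, the library's median was subtracted from log2(TPM + 0.1), and the mean was tested against a log2 band of 1 (treat of limma 3.58.1 in R 4.3.3, with a prior that follows the level). P-values were adjusted by Benjamini-Hochberg over all of them, with a threshold of 0.05. The fit was tested on simulated data. Expected counts were rounded, filtered with filterByExpr and scaled by TMM in edgeR 4.0.16 for the BCV. No pair of libraries agreed within counting noise (chi-square of 118 to 197 per degree of freedom), which bears only on whether a library was deposited again, not on whether the samples are independent. Alternatives were TPM of the second table, FPKM, TPM rescaled to the protein-coding genes of the nuclear genome, a pseudocount of 1, no minimum or one of 5 TPM, DESeq2 1.42.0 size factors, and each library left out. Named were all members, their transcripts of at least 10% of TPM, the 3 highest genes of each list, all relatives, the 3 genes nearest in level to Myc and to Max, and markers of other cell types of at least 5 TPM. Other names are marked. A few listed genes that the rule names are not reported here.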

Additional observations from a re-analysis of the deposited data

How the results depend on the processing

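The choice of genes that set the median moved the calls most. Without a minimum level 7 members were above and 1 below, with 62 listed genes above and 7 below, beside 34.7 and 38% of all genes. At a minimum mean of 5 TPM 1 member was above and 1 below, with 11 listed genes above and 1 below, beside 22.3 and 8.74%. Members near the median gene changed sign. At 5 TPM Myc stood at -0.006, Mxd4 at -0.84, Mlx at -0.76 and Mnt at -0.59; with no minimum Mxi1 stood at 0.93 and Mga at 1.17 (limma adjusted p = 0.022). In TPM of the second transcript table Mxd4 stood at -0.27 and Mlx at -0.17, and Mxd4 minus Mga was -0.063. Mga stood at 0.15 with rescaled TPM, and Mxd4 at -0.014 without replicate 1. The calls of Max and Mxd1 were the same with TPM of the second transcript table, rescaled TPM, a pseudocount of 1 and each library left out. Members above the median BCV numbered 3 (Mxd1, Myc and Mxi1). With no filter on low counts the median rose to 0.285 and Mxd3 alone was above it (0.477). Leaving out each library gave 1 to 3: Myc and Mxd1 without replicate 1, these and Mxd3 without replicate 2, and Mxi1 alone without replicate 3. In expected counts, which are not scaled by length, Mnt to Myc reversed to 0.53 (log2), the summed MXD genes to Myc came to 3.05 and Mlx to Max to -1.99. No paired analysis was possible because all 3 libraries belong to 1 group. Depth limits Mxd3 alone among the members.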
